A study of Homo sapiens with 4 samples.

Results

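The homeobox genes described here are 36 of the 13165 genes whose RNA levels were compared between TPC1-Vector and TPC1-INAVA cells. They were chosen by name as the HOX genes of clusters A to D and the SHOX, MEIS, PBX, PITX, DLX, MSX, IRX, LHX, TGIF, ALX, EMX, NKX, CUX, POU and sine oculis (SIX2 and its relatives) families, without antisense entries, PBXIP1 and NKX2-1. The rule itself uses names and no measured value. TPC1 cells are a cell line from a human papillary thyroid cancer. TPC1-Vector cells carry the empty vector, TPC1-INAVA cells express INAVA from the same kind of vector, and both were made into stable lines by selection with puromycin. INAVA is listed under its older symbol C1orf106, and the sample labels accordingly call the second group TPC1-C1orf106. RNA of 2 libraries per group was sequenced, and whether these came from separate cultures is not stated. Each gene has 1 deposited value per group, in FPKM, which counts fragments relative to transcript length and to all mapped fragments. The spread between libraries is thus unknown, the depth is unknown, and a value below has neither an SD nor a p-value. The groups were selected separately, so a difference between the selected cell lines and an effect of INAVA cannot be told apart.

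Homeobox genes encode transcription factors that bind DNA through a homeodomain. HOX proteins give cells their position along the body axis, and their genes stand in clusters in the order in which they are used. The proteins of the TALE class (MEIS, PBX, TGIF and IRX), whose homeodomain has a longer loop, join HOX proteins on DNA or act on their own. The other families each serve particular organs, such as the heart, the limbs, the kidney, the skull or the nervous system. In the thyroid, follicular cells are specified by PAX8, NKX2-1, FOXE1 and HHEX, and HOXA3 and NKX2-5 take part in the formation of the gland.

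A log2 fold change here is log2(FPKM + 0.5) of TPC1-INAVA minus that of TPC1-Vector, which understates the difference of weakly expressed genes. A gene was kept when the mean of its 2 values reached 0.5 FPKM, which left 12305 genes in all and 32 of the 36 homeobox genes. The other 4, with HOXA2, MEIS3 and POU6F1 among them, fell under this limit. The overexpressed gene, C1orf106 (chr1:200891499-200915736, GRCh38), stood at 7.96 FPKM in TPC1-Vector cells against 123 FPKM in TPC1-INAVA cells, 3.86 on the log2 scale. Over all genes kept, the median was 0.0033. Of the thyroid markers, PAX8 was at 60.1 and 55.7 FPKM, FOXE1 at 5.26 and 5.89 FPKM, and HHEX at 8.33 and 10.0 FPKM in TPC1-Vector and TPC1-INAVA. The other 8 of the 11 thyroid markers, among them TG, TSHR, SLC5A5 and NKX2-1, were not analysed here.

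Most homeobox genes stood at nearly the same level in both groups, and a few differed. SHOX2 was 3.04-fold lower in TPC1-INAVA, LHX1 1.5004-fold lower and NKX2-5 1.66-fold higher on the scale of FPKM + 0.5. The other 29 of the 32 genes differed by less than 1.5-fold. Thus 1 of 32 genes (3.12%) was at least 1.5-fold higher, beside 2.24% of all genes kept, and 2 of 32 (6.25%) were at least 1.5-fold lower, beside 1.45% of all genes kept. In all, 16 of the 32 were higher in TPC1-INAVA by any amount and 16 were lower, beside 50.8% of all genes higher. Their median log2 fold change was 0.0010. A single gene makes up 3.12% here, and no share was tested.

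The level of the genes bears on this comparison. The median of the mean FPKM was 1.98 for the homeobox genes and 11.4 for all genes, and 23 of the 32 (71.9%) were under 5 FPKM, against 30.2% of all genes. Weakly expressed genes differed more often throughout the table. Between 0.5 and 5 FPKM, 4.43% of genes were at least 1.5-fold higher and 2.47% at least 1.5-fold lower. Of the 23 homeobox genes in that range, 0 were at least 1.5-fold higher and 2, SHOX2 and LHX1, were at least 1.5-fold lower. At a lower limit, 0.32 on the log2 scale, 7 of the 32 homeobox genes (21.9%) were higher and 2 (6.25%) lower, beside 7.69% and 6.74% of all genes. Between 0.5 and 5 FPKM the counts were 6 of 23 higher (26.1%) and 2 of 23 lower (8.7%), beside 11.7% and 10.8% of all genes at these levels. The counts on the higher side came from the NKX, MSX and DLX families together with SIX2 and the pseudogene MEIS3P1. Of these, SIX2 was under 0.5 FPKM in TPC1-Vector and was kept only through its level in TPC1-INAVA.

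**Figure D1:**
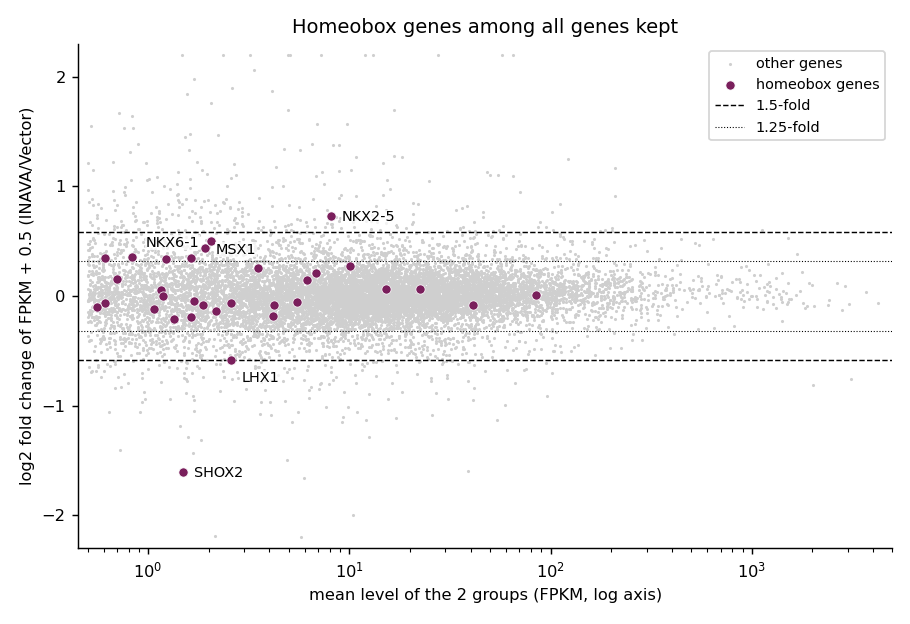
Each point is a gene kept, with the mean level of the groups (FPKM, log axis) across and the log2 fold change of FPKM + 0.5, TPC1-INAVA over TPC1-Vector, upwards. Grey points are other genes, of which 13 beyond 2.2 in either direction are drawn at the edge, and purple points are the 32 homeobox genes. Dashed lines mark 1.5-fold and dotted lines 0.32 on the log2 scale. SHOX2 lies far below the lower 1.5-fold line, LHX1 on it, and NKX2-5 above the upper one.

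SHOX2 (chr3:158096011-158106163, GRCh38), a paired-like factor of limb and sinoatrial node development, was at 2.50 FPKM in TPC1-Vector against 0.487 FPKM in TPC1-INAVA. The deposited values thus differed 5.13-fold, and the log2 fold change with 0.5 added was -1.60. The level in TPC1-INAVA lay just under the 0.5 FPKM used as the limit for the mean, so that the gene was kept only through its level in TPC1-Vector. In bulk RNA, fewer cells that express a gene and less RNA per cell cannot be told apart. The genes around SHOX2 were also lower. All 11 neighbours kept no more than 1 Mb away on either side were lower in TPC1-INAVA, and their median was -0.22 on the log2 scale. The lowest of them was LXN, a carboxypeptidase inhibitor, at 10.2 and 5.62 FPKM, a log2 fold change of -0.81. LXN lies at the same distance from SHOX2 as GFM1, at 45.8 and 39.6 FPKM (-0.21). The same holds for PTX3 with VEPH1 and for SCHIP1 with IQCJ-SCHIP1. The 11 neighbours are thus not 11 separate places, and reads may have been split within these pairs. RSRC1, a splicing-related gene and the kept gene nearest to SHOX2 in position, was at 30.9 and 23.1 FPKM (-0.41). SHOX2 was below the median of its neighbours by 1.38 on the log2 scale (-1.38) and below each of them. The part of the regional difference in the value of SHOX2 was not tested.

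NKX2-5 (chr5:173232104-173235312, GRCh38), a factor of heart formation that is also present in the thyroid primordium, was at 5.97 FPKM in TPC1-Vector against 10.2 FPKM in TPC1-INAVA. Its log2 fold change was 0.73, and the ratio of the deposited values was 1.71. Of the 3 homeobox genes past 1.5-fold, it alone stood above 5 FPKM. Around it, 7 of 12 neighbours within 1 Mb were higher and 5 lower, and the median of the 12 was 0.019. The phosphatase gene DUSP1 was the exception, at 10.4 and 25.96 FPKM (1.27). The hormone gene STC2, the next gene kept on the other side of NKX2-5, was at 5.04 and 6.79 FPKM (0.39). NKX2-5 exceeded the median of its neighbours by 0.71. In the sinoatrial node of the heart, SHOX2 is known to hold back NKX2-5. Here the first was lower and the second higher in TPC1-INAVA, and with 1 value per group no relation between them could be tested.

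LHX1, a LIM homeobox factor of kidney and head development, was at 3.20 and 1.96 FPKM, a log2 fold change of -0.59. The table places it on the alternative contig chr17_KI270857v1_alt (1173837 to 1180980, GRCh38). At 1.5004-fold it lay at the edge of the limit. The next gene below the limit, NKX6-1, was 1.41-fold higher. With 1 FPKM added in place of 0.5, the log2 fold change of LHX1 was -0.50 and it no longer counted as 1.5-fold lower. Its 13 neighbours had a median of -0.016 and ranged from -0.22 to 0.23, so LHX1 lay below all of them. LHX4, which acts in the pituitary, was at 0.631 and 0.584 FPKM and shares its position with the antisense entry LHX4-AS1, at 1.22 and 1.26 FPKM. The strand of the libraries is not given in the sources used here, so reads of LHX4 and LHX4-AS1 may not have been separated.

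**Figure D2:**
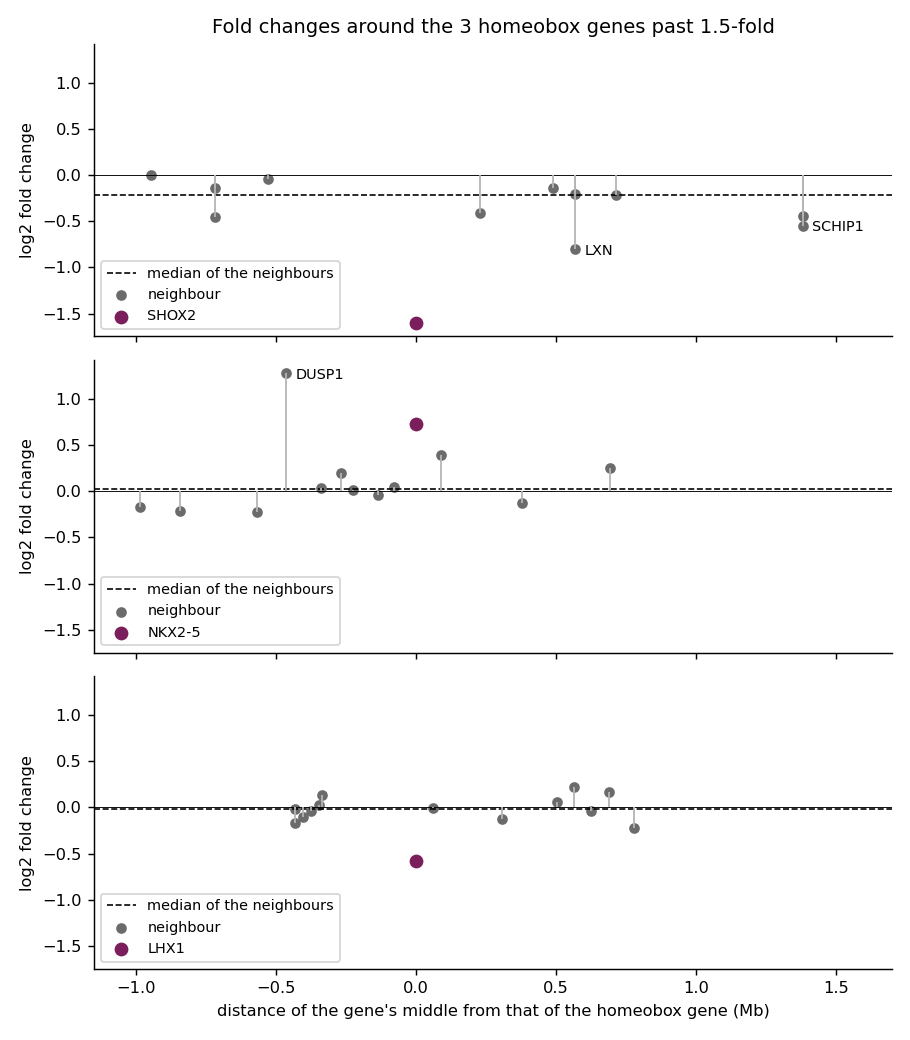
Log2 fold changes of FPKM + 0.5, TPC1-INAVA over TPC1-Vector, of the genes within 1 Mb of SHOX2, NKX2-5 and LHX1, against the distance of each gene's middle from that of the homeobox gene (Mb). Neighbours reach to within 1 Mb with their nearer end, so the middle of a long gene can lie farther away. Purple points are the homeobox genes, grey points their neighbours, and dashed lines the median of the neighbours. All neighbours of SHOX2 lie below 0, whereas those of NKX2-5 and LHX1 lie on both sides of it.

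The NKX, MSX and DLX genes were mostly higher in TPC1-INAVA. All 4 NKX genes and 2 of the 3 MSX and DLX genes were higher, with a median of 0.35 on the log2 scale over the 7 genes, and 5 of the 7 lay above 0.32. Of all genes kept, 50.8% were higher by any amount and 7.69% lay above 0.32, and 11.7% did so between 0.5 and 5 FPKM. These families were put together after their values were seen, so the counts describe them and support nothing. NKX6-1, a factor of pancreatic beta cells and motor neurons, was at 1.61 FPKM in TPC1-Vector against 2.48 FPKM in TPC1-INAVA (0.50). NKX3-2, which acts in cartilage, was at 0.672 and 0.996 FPKM (0.35). No NKX gene was lower, but only NKX2-5 passed 1.5-fold. MSX1, a factor of tooth and craniofacial development, was at 1.56 and 2.28 FPKM (0.44). DLX2, which acts in the forebrain and the pharyngeal arches, was at 1.38 and 1.90 FPKM (0.35). DLX4, with a role in placenta and blood cells, went the other way at 1.13 and 1.0 FPKM (-0.12). NKX6-1 and MSX1 lay above every neighbour within 1 Mb, with 5 and 8 neighbours kept, whereas DLX2 lay within the range of its 11 neighbours.

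Promoter sequences were taken from a reference set of RefSeq promoters (GRCh38.p14), and the set used here had an entry for 23 of the 36 genes. NKX2-5 and LHX1 had none in this set. The sequences of SHOX2, the gene with the largest fold on the lower side, and of NKX6-1, MSX1 and NKX3-2, those with the largest on the higher side among genes with an entry, are shown to set the strongest contrast of the family side by side. Each runs 5′ to 3′ on the strand of its gene, from 250 bases before the start to 50 bases after it, and capitals mark CG dinucleotides. The windows are chr3:158106114-158106413 (minus strand) for SHOX2, chr4:84499243-84499542 (minus) for NKX6-1, chr4:4859415-4859714 (plus) for MSX1 and chr4:13544459-13544758 (minus) for NKX3-2.
SHOX2: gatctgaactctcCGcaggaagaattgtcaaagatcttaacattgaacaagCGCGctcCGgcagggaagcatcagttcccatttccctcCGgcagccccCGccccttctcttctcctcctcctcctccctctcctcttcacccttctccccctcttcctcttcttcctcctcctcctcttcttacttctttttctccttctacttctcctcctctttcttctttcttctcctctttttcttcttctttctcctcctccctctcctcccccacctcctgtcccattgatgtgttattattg
NKX6-1: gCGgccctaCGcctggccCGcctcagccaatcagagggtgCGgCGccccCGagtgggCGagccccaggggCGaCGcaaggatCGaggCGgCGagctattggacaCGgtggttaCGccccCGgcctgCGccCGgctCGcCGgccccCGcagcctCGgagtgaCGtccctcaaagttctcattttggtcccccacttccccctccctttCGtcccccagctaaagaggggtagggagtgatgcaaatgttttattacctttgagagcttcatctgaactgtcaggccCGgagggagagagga
MSX1: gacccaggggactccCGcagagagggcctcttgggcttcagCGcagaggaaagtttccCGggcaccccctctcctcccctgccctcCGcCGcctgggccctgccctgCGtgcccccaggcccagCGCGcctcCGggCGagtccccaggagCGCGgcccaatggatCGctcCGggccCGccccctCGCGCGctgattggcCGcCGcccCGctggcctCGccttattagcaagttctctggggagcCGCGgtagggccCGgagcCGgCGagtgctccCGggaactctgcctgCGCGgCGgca
NKX3-2: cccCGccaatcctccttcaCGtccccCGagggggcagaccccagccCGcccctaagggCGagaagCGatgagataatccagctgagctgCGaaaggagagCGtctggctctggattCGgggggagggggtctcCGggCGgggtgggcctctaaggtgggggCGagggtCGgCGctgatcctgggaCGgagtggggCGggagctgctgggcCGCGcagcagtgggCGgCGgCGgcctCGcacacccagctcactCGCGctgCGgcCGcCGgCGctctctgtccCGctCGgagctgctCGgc
The SHOX2 window held 6 CG dinucleotides at 51.0% GC and a stretch made up mostly of c and t, whereas NKX6-1 held 24 at 65.0% GC, MSX1 31 at 74.7% and NKX3-2 31 at 72.7%. Genes that differed little between the groups also had few or many of them. The PBX2 window held 8 (log2 fold change 0.064) and the PBX3 window 43 (0.0060). The windows shown were picked by fold, and a relation of CG content to fold was not tested. Over the 42 promoter entries of the 23 genes, the median was 26.5 CG dinucleotides and 65.0% GC, against 14 and 58.7% over all 35116 entries. The motif TAATTA, a core bound by many homeodomains, was found on either strand in 1 of the 42 entries (2.38%, against 4.84% of all entries). TGACAG, a motif of MEIS and TGIF proteins, was found in 7 (16.7%, against 15.8%). Among the 4 windows shown, NKX6-1 held TGACAG and none held TAATTA. The TATA box core TATAAA was in 3 of the 42 entries (7.14%, against 11.5%). All 3 motifs were searched on both strands, TAATTA reads the same on both, and a window counts for each motif it holds even where matches overlap. A match describes letters and not binding, and entries of the same gene can share sequence.

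Of the HOX genes, 4 were analysed here, all from cluster A on chromosome 7, and none differed by 1.5-fold. Over all genes kept, 2.24% were at least 1.5-fold higher and 1.45% at least 1.5-fold lower. HOXA2, a factor of the hindbrain and second pharyngeal arch (chr7:27100354-27102775, GRCh38), was at 0.433 and 0.411 FPKM, under the limit. The next gene of the cluster was close to it. HOXA3, which acts in the thymus, parathyroid and thyroid (chr7:27106190-27130780), was at 0.638 and 0.770 FPKM, a log2 fold change of 0.16. HOXA5, known from lung development (chr7:27140364-27156677), was at 1.77 and 1.49 FPKM (-0.19). HOXA6 is placed at the same position as HOXA5 in the table and was at 1.73 and 1.66 FPKM (-0.045). The levels thus followed the order of the genes in the cluster, HOXA2 lowest, then HOXA3, then HOXA5 and HOXA6. HOXA5 and HOXA6 could not be ordered, since HOXA5 was the higher in TPC1-Vector and HOXA6 in TPC1-INAVA, and reads of overlapping transcripts may have been split between them. All 4 were weakly expressed, with 13.3% of the genes kept at a lower mean level than HOXA6 and 3.54% at a lower level than HOXA3. HOXA3 shares its position with HOXA-AS2, at 0.908 and 1.05 FPKM (0.13). The neighbours of HOXA5 and HOXA6 within 1 Mb, the other HOXA entries kept among them, had a median of 0.047.

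The partners of HOX proteins in the TALE class were the most strongly expressed homeobox genes and differed little. PBX3 had the highest level of all 36, at 84.5 FPKM in TPC1-Vector against 84.9 FPKM in TPC1-INAVA (0.0060), above 92.4% of the genes kept. PBX2, which is placed on the alternative contig chr6_GL000256v2_alt, was at 14.8 and 15.5 FPKM (0.064). The repressors TGIF1 and TGIF2, which limit transforming growth factor β and retinoid signalling, were at 21.9 and 22.8 FPKM (0.060) and at 5.82 and 6.47 FPKM (0.14). For all 4, the groups differed by at most 1.104-fold on the scale of FPKM + 0.5, and of these only TGIF2 shares its position with another gene, C20orf24. The MEIS genes were far lower. MEIS1 was at 0.590 and 0.519 FPKM (-0.096), MEIS2 at 1.94 and 1.81 FPKM (-0.080) and MEIS3, under the limit, at 0.471 and 0.385 FPKM. The pseudogene MEIS3P1 stood above MEIS3, at 1.03 and 1.43 FPKM (0.34), and reads may be shared between these near-identical copies. The IRX genes all stood below PBX2, and IRX5 also below MEIS2. These patterning factors of heart, limb and nervous system were at 4.36 and 4.10 FPKM for IRX2 (-0.078), 3.16 and 3.87 FPKM for IRX3 (0.25) and 1.19 and 1.19 FPKM for IRX5 (-0.0040). IRX3 alone of these was higher, and IRX5, which lies in the same cluster on chromosome 16, was nearly equal. Over the 10 TALE genes kept, the median log2 fold change was 0.033.

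**Figure D3:**
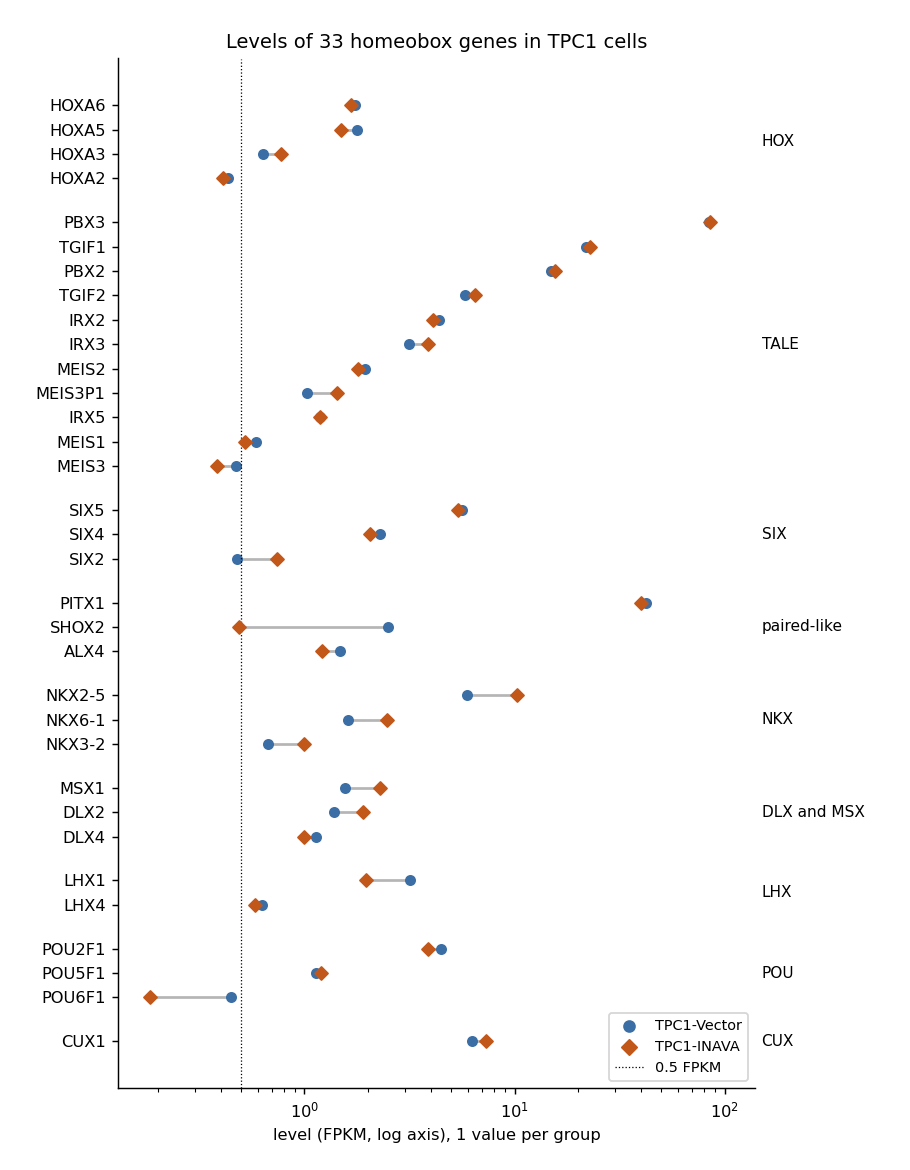
Levels of 33 homeobox genes in FPKM on a log axis, by family, with 1 value per group (blue circles TPC1-Vector, orange diamonds TPC1-INAVA). The dotted line marks 0.5 FPKM. PBX3, PITX1 and TGIF1 stand highest with overlapping symbols, and SHOX2 and POU6F1 show the widest gaps.

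PITX1, a paired-like factor of the hindlimb and pituitary (chr5:135027734-135399887, GRCh38), ranked second, at 42.3 FPKM in TPC1-Vector against 40.0 FPKM in TPC1-INAVA (-0.079). Its position in the table also holds H2AFY, at 120 and 127 FPKM, and C5orf66, so its reads may have been split. ALX4, which acts in the skull and limb, was at 1.48 and 1.21 FPKM (-0.21). The 3 paired-like genes kept were thus all lower in TPC1-INAVA, SHOX2 alone by more than 1.5-fold on the scale of FPKM + 0.5. The sine oculis genes, which work with EYA proteins in sensory organs, muscle and kidney, mostly stood close together in the groups. SIX5 was at 5.61 and 5.38 FPKM (-0.057) and SIX4 at 2.295 and 2.05 FPKM (-0.13). SIX2, a factor of kidney progenitors, was the exception at 0.477 and 0.740 FPKM (0.34). The deposited values of SIX2 differed 1.55-fold at this low level, and the gene was kept only through its level in TPC1-INAVA.

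Among the POU genes, POU2F1, the widely expressed octamer-binding factor, was at 4.45 and 3.88 FPKM (-0.18). POU5F1, a factor of pluripotent cells with several expressed pseudogenes to which reads could be assigned, was at 1.14 and 1.19 FPKM (0.052). Like PBX2, POU5F1 is placed on the alternative contig chr6_GL000256v2_alt. POU6F1 was at 0.449 FPKM in TPC1-Vector against 0.184 FPKM in TPC1-INAVA, which is 2.44-fold lower in the deposited values, -0.47 on the log2 scale with 0.5 added, and under the limit of the mean. After SHOX2, this was the widest ratio among the 36 genes. CUX1, a cut-like repressor, was at 6.27 and 7.34 FPKM (0.21).

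Log2 fold changes of the homeobox genes were set beside those of their neighbours, since genes of a region can differ together. For 28 of the 32 genes at least 5 neighbours were kept within 1 Mb. Relative to the median of the neighbours, 15 of the 28 were higher, NKX2-5 was still past 1.5-fold at 0.71 and SHOX2 at -1.38, and LHX1 came to -0.57 and NKX6-1 to 0.58, on either side just inside the limit of 0.585.

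**Figure D4:**
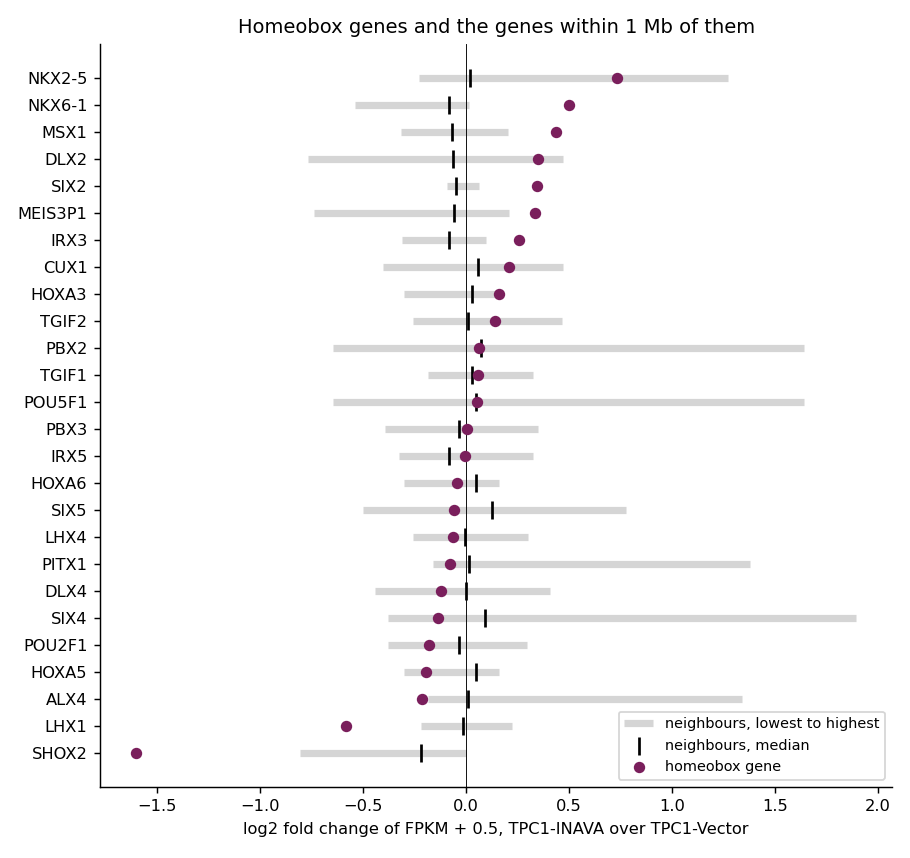
Log2 fold changes of FPKM + 0.5, TPC1-INAVA over TPC1-Vector, of 26 homeobox genes with at least 5 neighbours (purple points), with the median (black ticks) and the lowest to highest value (grey bars) of the genes kept within 1 Mb. SHOX2 lies below its neighbours, which are themselves shifted down, and NKX2-5 lies within the range of its own.

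Of 87 other homeobox genes listed, 36 were analysed and 31 kept. None of the 31 was 1.5-fold different, 2 lay above 0.32 on the log2 scale and 4 below -0.32, and their median log2 fold change was -0.057. Of all genes kept, 2.24% were at least 1.5-fold higher and 1.45% lower, while 7.69% lay above 0.32 and 6.74% below -0.32. No share was tested in a list this short. The nearest to the limit was PKNOX1, a PBX partner of the MEIS type, at 8.81 FPKM in TPC1-Vector against 5.85 FPKM in TPC1-INAVA (-0.55). PAX2, a paired box factor of kidney and eye, was at 5.15 and 3.49 FPKM (-0.50), and ZHX2, a repressor with homeodomains and zinc fingers, at 3.25 and 2.15 FPKM (-0.50). LBX2 was the fourth, at 2.95 and 2.05 FPKM (-0.44). On the higher side, MNX1, a motor neuron factor, was at 0.340 and 0.666 FPKM (0.47), and SATB1, a chromatin organiser, at 0.806 and 1.26 FPKM (0.43). MNX1 was kept only through its level in TPC1-INAVA, the group where it was higher. These 6 genes, and those under 1.5-fold in the lists that follow, were named after their values were seen.

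HOX genes are kept silent by Polycomb proteins and active by Trithorax proteins. All 33 Polycomb genes and 21 Trithorax genes listed were kept, and none was 1.5-fold different. Few genes of the whole table were, with 2.24% of all genes kept at least 1.5-fold higher and 1.45% lower. At the limit of 0.32 these shares were 7.69% and 6.74%. The Polycomb median was -0.084, with 0 genes above 0.32 and 3 below -0.32, namely PHC3 (9.77 and 7.23 FPKM, -0.41), CBX7 (1.51 and 1.06 FPKM, -0.36) and PCGF6 (16.9 and 13.3 FPKM, -0.34). The methyltransferase EZH2 was at 19.4 and 17.9 FPKM (-0.11). The Trithorax median was -0.015, and KMT2A, a methyltransferase at HOX promoters, was at 9.56 and 9.16 FPKM (-0.060). Retinoic acid sets the expression of HOX genes in the embryo, and of 21 genes of its pathway 12 were kept. STRA6, the membrane receptor for retinol uptake, was at 1.65 FPKM in TPC1-Vector against 2.87 FPKM in TPC1-INAVA (0.65). DHRS3, which reduces retinal back to retinol, was at 5.06 and 2.58 FPKM (-0.85). The synthesis enzymes RDH10, at 16.8 and 22.4 FPKM (0.40), and ALDH1A3, at 15.8 and 21.2 FPKM (0.42), were higher by less than 1.5-fold, and the receptors RARA, at 8.06 and 7.77 FPKM, and RXRA, at 38.0 and 37.3 FPKM, stood close together. So did CYP26B1, at 5.64 and 5.98 FPKM (0.079), CRABP2, at 19.6 and 18.7 FPKM (-0.067), and RARG, at 8.99 and 8.15 FPKM (-0.13). RARRES3 was at 0.358 and 0.665 FPKM (0.44) and was kept only through its level in TPC1-INAVA. Of the 12 genes, 4 lay above 0.32 and 1 below -0.32, and the median was 0.027.

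Markers of other cells were low. Of 7 fibroblast markers, 3 were analysed (COL1A1, LUM and PDGFRB), with a summed level of 3.56 FPKM in TPC1-Vector against 2.19 FPKM in TPC1-INAVA. Of 5 blood markers, 3 were analysed (CD14, CD68 and HBB), with sums of 6.70 and 10.1 FPKM, and of 3 endothelial markers none. Most of the blood sums came from CD68, at 5.76 and 8.67 FPKM. HBB was at 0.645 and 1.20 FPKM, and CD14 went the other way at 0.295 and 0.236 FPKM. Of the 6 epithelial markers 3 were analysed, KRT18 at 140 and 212 FPKM (0.59), KRT8 at 23.4 and 10.5 FPKM (-1.12) and KRT7 at 1.97 and 2.01 FPKM. No analysed marker was listed at 0. Their part in the values of the homeobox genes was not tested.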

How the data were processed

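RNA of TPC1-Vector and TPC1-INAVA cells was sequenced in 2 libraries per group. The table of the authors holds FPKM values, 1 for each group, with 3 columns of their own comparison (log2 ratio, p-value and q-value), which were not used. The submitters' processing notes name CASAVA, Cufflinks 2.1.1, Cuffdiff and the build hg38 (GRCh38). The aligner and annotation are not given in the sources used here, and the labels and the methods name different library kits. The homeobox genes and gene lists were chosen with earlier results of these data known.

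Genes whose 2 values averaged 0.5 FPKM or more were kept, and differences of log2(FPKM + 0.5) of at least 1.5-fold in either direction were counted. No test was possible with 1 value per group, and library depth is unknown. Genes named are C1orf106, every homeobox gene past 1.5-fold, every HOX gene kept, the most strongly expressed gene of each other family, those next to a limit, and genes of other lists past 1.5-fold. Most of the remaining homeobox genes were added, and a few genes are counted but not reported here by name. Neighbours are genes kept within 1 Mb. Positions in the table start at 0: the RefSeq start was 1 base higher for 2305 of 9725 genes compared and equal for 280, so starts were written 1 higher. Of all entries, 2612, among them 6 of the homeobox genes, share their position with another. Calculations used Python 3.11.15, numpy 2.4.6, pandas 2.3.3 and matplotlib 3.10.9, and were tested on simulated data. Alternatives were pseudocounts of 0.1, 1 and none, no filter, a limit of 1 FPKM, median-of-ratios scaling, quantile normalization, folds relative to neighbours, omission of genes that share a position, and limits of 2-fold and 0.32 on the log2 scale.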

Additional observations from a re-analysis of the deposited data

How the results depend on the processing

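No paired analysis was possible because the table has 1 value per group, and for the same reason no library could be left out. Homeobox genes at least 1.5-fold higher numbered 1 as reported, 2 with 0.1 FPKM added (NKX2-5 and NKX6-1) and 3 with nothing added (also SIX2). Those at least 1.5-fold lower numbered 2 as reported and 1 with 1 FPKM added or relative to neighbours, when LHX1 came to less. Added FPKM shrink the folds of weak genes by construction. Past 2-fold there was 1 gene, SHOX2, and past 0.32 on the log2 scale there were 9, against 3 past 1.5-fold. SHOX2 ranged from -2.36 with nothing added to -1.23 with 1 FPKM added. C1orf106 ranged from 3.78 to 3.94 and the median of the homeobox genes from -0.040 to 0.029. Of 18 homeobox genes followed through the alternatives, 17 kept their direction where they had a value, and PBX3, near 0, did not. Most alternatives could not have changed a direction, since added FPKM, filters, omitted genes and other limits leave the sign of each value as it is. Only median-of-ratios scaling, quantile normalization and folds relative to neighbours could reverse one. Values moved by up to 0.1 on the log2 scale, or counts within 1.5 times, were taken as unmoved, since no spread between libraries is known. Without genes that share a position no HOX gene kept remained. Counting error cannot be stated for genes near 0.5 FPKM, since depth is unknown.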
